A study of Mus musculus with 4 samples.

Results

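Rab30 and 9 further Rab GTPases of the Golgi, endoplasmic reticulum, endosomes and lipid droplets were followed in fasted mouse liver. The members were chosen by gene name: Rab30, Rab1a, Rab1b, Rab2a, Rab6a, Rab7, Rab8a, Rab10, Rab18 and Rab33b. All 10 were found once each among the 54532 genes of the count table, and 49 other Rab genes were read beside them. The tissue was liver of mice with a liver-specific knockout of Cpt1a, which passes long-chain fatty acids toward oxidation in mitochondria, taken after a 24 h fast and profiled by RNA-seq as 4 libraries called 4 livers here. The libraries held 13138884 to 14116441 counts, and the labels do not say that they come from separate mice, so their spread may be technical.

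Further groups enter only through 3 tables of the authors. The Cpt1a knockout livers are set against a reference group and, directly, against a Cpt2 group, which is itself set against that reference. All groups were fasted for 24 h according to the design text, which names littermate controls and mice lacking Cpt2, the inner membrane partner of Cpt1a. The column names of both knockout groups add AlbCre, the usual shorthand for Cre recombinase under the albumin promoter, which acts in hepatocytes. The reference group is named by Rab30 and Cpt2 joined with an f, and whether those mice carry a changed Rab30 allele is not stated there. Neither strain, sex, age nor group size is stated in the labels, and since it is unknown whether the groups were sequenced together, genotype and batch cannot be told apart.

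Rab proteins are small GTPases that mark membranes. An exchange factor loads GTP and thereby anchors the Rab on its membrane, where it recruits tethers and motors. A GTPase activating protein ends the cycle, and GDI, which binds the lipid tail added by geranylgeranyl transferase, draws the protein back into the cytosol. In liver these proteins serve the export of plasma proteins and lipoproteins through the Golgi and the turnover of lipid droplets. Rab30 resides on the Golgi and is known as a gene that fasting induces in mouse liver through the nuclear receptor PPARA. Cpt1a transcript, the check of the knockout, was at 24.4, 28.6, 31.1 and 36.9 FPKM in livers 1 to 4 and had -2.79 on the log2 scale for the knockout over the reference group (adjusted p = 5.27e-51) in the authors' deposited table. Cpt2 had -0.07 for the Cpt2 group over the reference group in the authors' deposited table (adjusted p = 0.837), so its level does not check that label.

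The members share the phosphate-binding loop through which a Rab holds its nucleotide. Its codons are shown for Rab30 and for the 3 members that are either a call in these comparisons or a near copy of one, since reads can be assigned to a member only where the letters differ. Capitals mark the 24 bases of the loop, with 12 coding bases on each side, 5′ to 3′ on the transcript strand, from GENCODE M21 on GRCm38.
Rab30: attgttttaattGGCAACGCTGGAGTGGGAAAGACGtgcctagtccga
Rab1a: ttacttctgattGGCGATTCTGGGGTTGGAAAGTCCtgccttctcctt
Rab1b: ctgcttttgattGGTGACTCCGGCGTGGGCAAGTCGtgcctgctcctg
Rab2a: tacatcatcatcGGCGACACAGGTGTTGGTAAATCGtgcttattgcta
The Rab30 stretch lies in 1 exon at chr7:92820024-92820071 on the plus strand, that of Rab1a at chr11:20215646-20215693 on the plus strand and that of Rab1b at chr19:5105187-5105234 on the minus strand. The Rab2a stretch is joined across an intron, from base 8535887 to base 8561177 of chromosome 4 on the plus strand. Of these 48 bases, Rab1b matched Rab30 at 33, Rab1a at 32 and Rab2a at 28.

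Over the whole coding sequence, Rab30 (609 bases) was closest to Rab1a, with 58.9% identical bases after global alignment, and farthest from Rab33b (51.1%). The longest run of bases that Rab30 shared with any other member was 16, found in Rab7. Rab1a and Rab1b were the closest pair at 76.1% identity, with a shared run of 38 bases. Rab7 has a processed pseudogene, Rab7-ps1, that matched 98.4% of 620 aligned bases of its 621-base coding sequence and carried a mean of 42.3 counts, against 2700.5 for Rab7. Which of these genes a read from that stretch was counted for is therefore uncertain.

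Transcript levels in the Cpt1a knockout livers spanned more than an order of magnitude. They are given as FPKM, counts scaled to gene model length and library size, which allows genes of different length to be compared. Rab7, which acts on late endosomes and lysosomes, was the most abundant at 67.3 ± 8.50 FPKM (SD, n = 4), and Rab33b, a Golgi Rab that also binds the autophagy protein Atg16l1, the least at 2.81 ± 0.192 FPKM. Rab30 stood ninth of 10, at 8.40 ± 2.01 FPKM (SD, n = 4).

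Rab30 (ENSMUSG00000030643, chromosome 7, 92741603 to 92844535, plus strand, GRCm38) was measured at 11.2, 8.29, 6.57 and 7.50 FPKM in livers 1 to 4, from 1624, 1202, 1006 and 1136 counts. Liver 1 was highest and liver 3 lowest, 1.71-fold apart. Of the protein-coding genes with a mean of at least 1 FPKM, 63.6% lay below Rab30. Its gene model is 9642 bases long, the longest of the 10, so its place in the order depends on the scaling to that length. By mean count, Rab30 (1242) lay above Rab10 (1228), Rab6a (1072.75) and Rab8a (802).

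The Rabs of transport between endoplasmic reticulum and Golgi were 5.92 to 6.15 times as abundant as Rab30. Rab1a (chromosome 11, 20201432 to 20226856), which works with the TRAPP exchange complexes on vesicles that leave the endoplasmic reticulum, was at 61.5, 52.3, 49.5 and 43.2 FPKM in livers 1 to 4. Its paralog Rab1b (chromosome 19, 5099207 to 5106996) was at 46.4, 44.5, 64.0 and 49.0 FPKM, high in liver 3. Rab2a (chromosome 4, 8535644 to 8607778), which acts in Golgi organization and the fusion of autophagosomes with lysosomes, was at 50.7, 46.1, 57.3 and 44.7 FPKM. The ranges of these 3 genes overlapped, and Rab1a exceeded Rab1b in 2 of 4 livers and Rab1b exceeded Rab2a in 2 of 4, so their order cannot be set.

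Rab18, which associates with lipid droplets and the endoplasmic reticulum, was at 43.3, 40.7, 45.6 and 40.0 FPKM, the smallest spread relative to its mean of the 10 (6.07%). The libraries did not resolve it from Rab2a by range, although it was lower in 4 of 4 livers. Below a gap came Rab10, a Rab of exocytosis and the tubular endoplasmic reticulum, at 28.8, 22.9, 19.8 and 19.6 FPKM, and Rab6a, which drives traffic from the Golgi back to the endoplasmic reticulum, at 23.0, 19.0, 18.3 and 14.7 FPKM. Rab10 exceeded Rab6a in 4 of 4 livers with overlapping ranges.

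Rab8a, which carries cargo from the trans-Golgi network to the cell surface, was at 11.5, 9.29, 13.6 and 10.1 FPKM, above Rab30 in 4 of 4 livers by 1.32-fold in the mean. Rab33b was at 2.86, 3.03, 2.56 and 2.77 FPKM, and its range met that of no other member. Ranges also did not meet between Rab18 and Rab10 or between Rab6a and Rab8a. All other neighbours in the order overlapped.

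**Figure D1:**
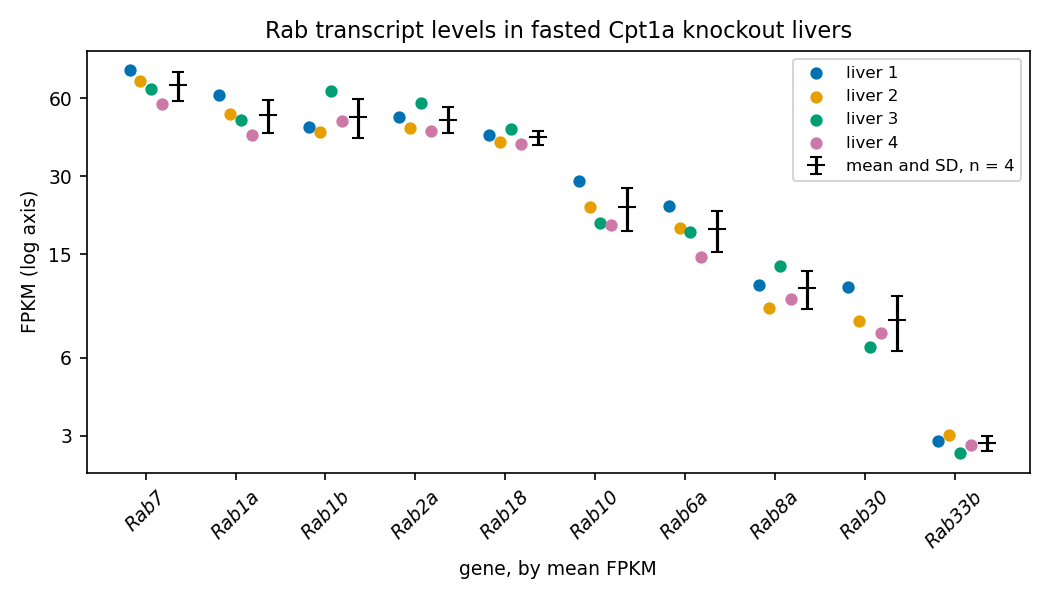
Level of the 10 Rab transcripts in FPKM on a log axis, each point a fasted Cpt1a knockout liver and each bar the mean with SD (n = 4). Rab7 leads at 67.3 FPKM, Rab30 lies ninth at 8.40 FPKM and Rab33b last at 2.81 FPKM.

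The members did not vary together between livers. Of the 10, 5 were highest in liver 1 (Rab30, Rab1a, Rab6a, Rab7 and Rab10), 4 in liver 3 (Rab1b, Rab2a, Rab8a and Rab18) and Rab33b in liver 2. Across all genes this difference between livers moved with gene length: on the log2(FPKM + 1) scale liver 1 minus liver 3 had a median of -0.25 in the tertile of shortest gene models (3169 protein-coding genes) and 0.23 in the tertile of longest (3168), while the longest member, Rab30, had 0.69 and the shortest, Rab1b, -0.46. Rab8a, the second longest, went the other way at -0.22. The part of length or RNA quality in the spread of Rab30 was not tested.

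The variation beyond counting error was read from edgeR's dispersion, fitted to the 13794 genes whose count averaged 10 or more, as a biological coefficient of variation. Rab30 had 22.0%, against a median of 16.5% over those genes, and 65.9% of genes varied less. Without liver 1 its value was 11.4%, so that liver carries much of the spread. Rab1a had 13.5%, Rab1b 16.6%, Rab2a 10.6% and Rab18 4.88%. Without liver 3, Rab1b had 4.82%, Rab2a 4.58% and Rab18 1.35%, so the spread of these genes rests largely on that liver. For Rab33b, with a mean of 152.75 counts, the variance between livers was 0.717 times that of counting alone, so no variation beyond counting was detectable at this depth.

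**Figure D2:**
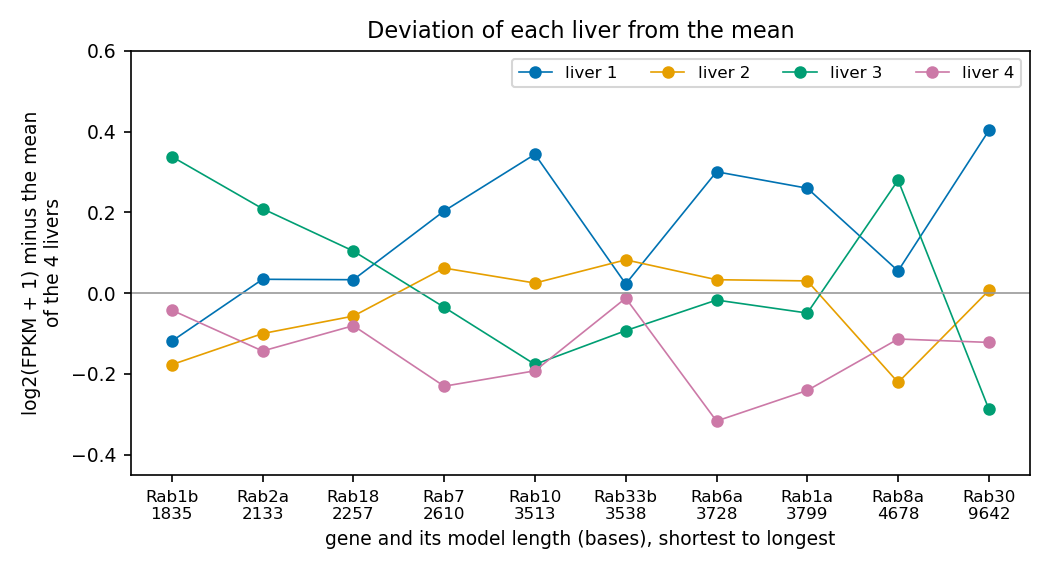
Deviation of each liver from the mean of the 4 on the log2(FPKM + 1) scale, with genes placed by gene model length. Liver 1 stands 0.40 above the mean for Rab30, the longest model, and liver 3 stands 0.34 above it for Rab1b, the shortest.

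Rab30 was higher in the Cpt1a knockout livers than in the reference group, by 2.16-fold (log2 fold change 1.11, adjusted p = 8.39e-05) in the authors' deposited table. Group means of the normalized counts were not used here, since the libraries of the other groups belong to no sample of the series. None of the other 9 members was called there at an adjusted p below 0.05, by a test that the sources used here do not name, and 1 of the 9 had an unadjusted p below 0.05. Of about 16862 genes tested for that deposited table, 14.4% were called, 6.81% higher and 7.60% lower, so that 1 member called of 10 is near the share of all genes. In whole liver, fewer cells of a type and less RNA per cell cannot be told apart.

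The gene with the unadjusted p below 0.05 was Rab10, with a log2 fold change of -0.42 (p = 0.0201, adjusted p = 0.105) in the authors' deposited table. The other 8 members are not in that deposited table, where the unadjusted p does not exceed 0.05. For them the sum of the other log2 fold changes of the authors' deposited tables (Cpt2 group over reference group, Cpt1a knockout over Cpt2 group) stands in. That sum was 0.18 for Rab1a, 0.01 for Rab33b, -0.12 for Rab8a, -0.15 for Rab18, -0.25 for Rab1b, -0.26 for Rab6a, -0.29 for Rab2a and -0.32 for Rab7. Over the 9 members beside Rab30 the median was -0.25, against 0.01 over 17054 genes tested in both full deposited tables. Among the 10745 of those genes with a mean of at least 1 FPKM in the Cpt1a knockout livers, the median was -0.04. A p that misses the threshold does not show that the 9 members were alike in the groups.

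Rab30 was also higher in the Cpt2 group than in the reference group. There it was 3.97-fold higher (log2 fold change 1.99, adjusted p = 9.24e-18) in the authors' deposited table. Rab1a was higher too, by 1.40-fold (log2 fold change 0.49, adjusted p = 0.0376) in the authors' deposited table. These 2 of 10 members were the only calls, where 21.0% of 17475 genes were called in that deposited table, 10.3% higher and 10.7% lower. The call of Rab1a ends at a threshold of 0.01.

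The remaining 8 members had log2 fold changes from -0.27 (Rab10, adjusted p = 0.198) to 0.20 (Rab2a, adjusted p = 0.469) in the same deposited table of the authors. Rab18 had 0.00 (adjusted p = 0.994), and Rab1b, the near copy of Rab1a, 0.00 (adjusted p = 0.998) in the authors' deposited table. Rab33b had 0.14 (adjusted p = 0.743), Rab8a 0.09 (0.751), Rab6a 0.07 (0.813) and Rab7 -0.08 (0.774) in the authors' deposited table. Rab1a and Rab1b thus had different values under the same comparison, a difference for which no test was made.

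Set directly against the Cpt2 group, the Cpt1a knockout livers had less Rab30, by 1.85-fold (log2 fold change -0.89, adjusted p = 6.89e-05) in the authors' deposited table. This comparison does not use the reference group. Rab2a was lower as well, by 1.40-fold (log2 fold change -0.48, adjusted p = 0.00235) in the authors' deposited table. These 2 of 10 members were called lower, where 28.8% of 17755 genes were called in that deposited table, 14.2% higher and 14.6% lower. All 10 members had a log2 fold change below 0, from -0.89 to -0.13, with a median of -0.25 against 0.03 over all 17054 genes. All members have a mean of at least 1 FPKM in the Cpt1a knockout livers. Among the 10745 genes at that level the median was -0.01, and 5442 lay below 0.

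Among the members not called, Rab6a had -0.33 (adjusted p = 0.0973) and Rab1a -0.31 (adjusted p = 0.10) for the Cpt1a knockout over the Cpt2 group in the authors' deposited table. Rab7 had -0.24 (adjusted p = 0.162), while its pseudogene Rab7-ps1 was called lower at -0.72 (adjusted p = 0.0219) in the authors' deposited table. Rab6a overlaps Mrpl48 and Rab10 overlaps Rab10os on the opposite strand, and whether the counting used strand is not given in the sources used here. Mrpl48 averaged 319.5 counts in the Cpt1a knockout livers against 1072.75 for Rab6a, and Rab10os 154.5 against 1228 for Rab10.

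**Figure D3:**
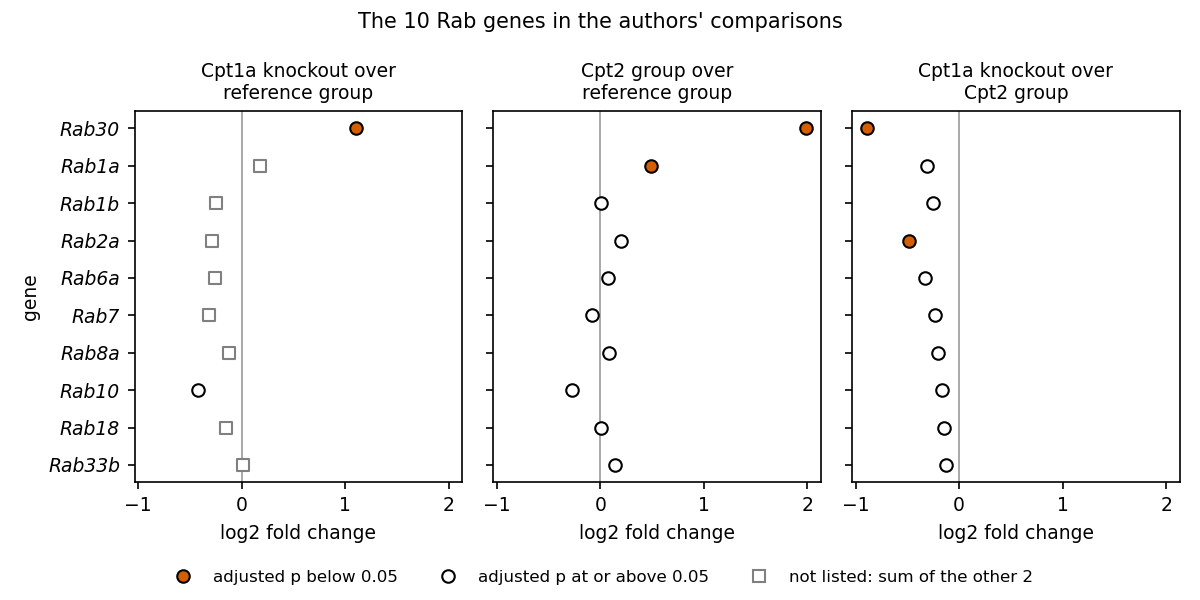
Log2 fold change of the 10 Rab genes in the authors' 3 comparisons, with filled points for an adjusted p below 0.05 and squares for genes absent from the partial table, drawn at the sum of the other log2 fold changes. Rab30 is at 1.11, 1.99 and -0.89, and the other 9 genes stay between -0.48 and 0.49.

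Rab30 stood at the edge of the Rab genes with a mean of at least 1 FPKM in the Cpt1a knockout livers. Of these 37 Rab genes, it had the highest log2 fold change in both comparisons with the reference group. For the Cpt1a knockout over the Cpt2 group it had the second lowest, by the authors' deposited tables. For the Cpt1a knockout over the reference group, genes absent from that deposited table were ranked by the sum of the other log2 fold changes. The filter at 1 FPKM leaves out Rab genes with higher values. Among them is Rab6b, called at 4.50 and 4.05 over the reference group in the authors' deposited tables. Among protein-coding genes at that level, 2.34% had a higher log2 fold change than Rab30 for the Cpt1a knockout and 0.842% for the Cpt2 group, each over the reference group. For the Cpt1a knockout over the Cpt2 group 5.82% had a lower one. The comparisons share groups, so these ranks are not independent of each other.

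The protein-coding neighbours of Rab30 within 1 Mb and at a mean of at least 1 FPKM were Ccdc90b, Pcf11 and Prcp. They had log2 fold changes of 0.43, -0.22 and 0.07 for the Cpt1a knockout over the reference group, by the sum of the authors' deposited tables. For the Cpt2 group over the reference group, Pcf11, a factor of transcript 3′ end cleavage, was called lower at -0.38 (adjusted p = 0.0482) in the authors' deposited table, and the others were not called. No neighbour was called for the Cpt1a knockout over the Cpt2 group. In the tertile of longest gene models, which holds Rab30, the median log2 fold change was -0.08 for the Cpt1a knockout and -0.02 for the Cpt2 group over the reference group, and -0.06 for the Cpt1a knockout over the Cpt2 group.

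The genes whose pair of log2 fold changes over the reference group (Cpt1a knockout, Cpt2 group) lay nearest to that of Rab30 were Sel1l3, Serinc2, Daglb, Impa2 and Cyr61, by Euclidean distance over 2 comparisons among protein-coding genes with a mean of at least 1 FPKM. Sel1l3 lay at a distance of 0.04, with 1.09 and 2.02 on the log2 scale in the authors' deposited tables. Daglb, a diacylglycerol lipase, had 1.01 and 1.90, and Impa2, an inositol monophosphatase, 1.25 and 1.96 in the authors' deposited tables. Serinc2 had 1.07 and 1.87, and Cyr61, a secreted matricellular protein, 0.95 and 2.01 in the authors' deposited tables. These values chose the 5 genes and largely fix their difference between the Cpt1a knockout and the Cpt2 group, so neither is a result.

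Beyond the 10 members, Rab6b, Rab8b, Rab34 and Rab36 were among the Rab genes called higher over the reference group. Of the 49 other Rab genes, 46 of which had a value, 6 were higher and 0 lower in the Cpt1a knockout livers than in the reference group, against 6.81% and 7.60% of all genes, in the authors' deposited table. Rab6b, a paralog of Rab6a best known from neurons, was at 4.50 on the log2 scale (adjusted p = 1.37e-05) in the authors' deposited table, and had a mean of only 24.5 counts and 0.316 FPKM in the knockout livers. Rab8b, the paralog of Rab8a, had 0.93 (adjusted p = 0.00190), Rab9, which returns cargo from late endosomes to the Golgi, 0.45 (adjusted p = 0.0327) and Rab36 0.84 (adjusted p = 0.0340) in the authors' deposited table.

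Over the reference group, the Cpt2 group had 6 of the other Rab genes higher and 2 lower, against 10.3% and 10.7% of all genes, by the authors' deposited table. Rab34, a Rab of the Golgi and the primary cilium, was at 1.78 on the log2 scale (adjusted p = 1.45e-14) and Rab36 at 1.56 (adjusted p = 6.18e-13) in the authors' deposited table. Rab6b had 4.05 (adjusted p = 1.32e-04) there, and Rab32, which acts in lysosome-related organelles, was lower at -0.89 (adjusted p = 1.99e-04) in the authors' deposited table. Between the genotypes, 7 other Rab genes were higher and 4 lower in the Cpt1a knockout livers than in the Cpt2 group, against 14.2% and 14.6% of all genes, in the authors' deposited table. Rab34 was at -1.30 (adjusted p = 2.28e-09), Rab8b at 1.08 (6.71e-06), Rab32 at 0.80 (4.96e-07) and Rab3a, a Rab of regulated secretion, at 1.07 (0.00105) in the authors' deposited table.

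Markers of some other liver cell types also differed between the groups. Of all genes, 6.81% were called higher and 7.60% lower for the Cpt1a knockout over the reference group. The shares were 10.3 and 10.7% for the Cpt2 group over the reference group. For the Cpt1a knockout over the Cpt2 group they were 14.2 and 14.6%. Over the reference group, all 5 Kupffer cell markers had a log2 fold change above 0 in the Cpt1a knockout (1 called) and below 0 in the Cpt2 group (3 called), from the authors' deposited tables or their sum, and all 5 were called higher for the Cpt1a knockout over the Cpt2 group (median 1.19). The 5 further macrophage markers all had a log2 fold change above 0 for the Cpt1a knockout over the reference group, from the authors' deposited table or the sum. There 1 was called, Lyz2 at 1.31. In the other comparisons the 5 divided. Cd68 and Gpnmb had 2.60 and 6.04 in the Cpt2 group over the reference group, and -2.18 and -5.50 for the Cpt1a knockout over the Cpt2 group, by the authors' deposited tables. Lyz2, Adgre1 and Csf1r had -0.37, -0.33 and -0.27 in the Cpt2 group over the reference group, none of them called, and were called higher at 1.66, 0.92 and 0.77 for the Cpt1a knockout over the Cpt2 group, by the authors' deposited tables. Of 6 hepatocyte markers, 4 were lower in the Cpt1a knockout and 4 in the Cpt2 group than in the reference group, with Alb at -1.23 and -1.41 in the authors' deposited tables. Summed over each list, hepatocyte markers were at 18307 to 26623 FPKM in the Cpt1a knockout livers, Kupffer cell markers at 98.6 to 122.1, macrophage markers at 59.6 to 72.9 and lymphocyte markers at 2.75 to 3.34, and no marker was at 0 in all 4 livers. Of 5 lymphocyte markers, 2 were higher in the Cpt1a knockout than in the reference group, by the authors' deposited tables. Over the Cpt2 group 3 were higher, and none was called lower in either comparison. The 2 were Ptprc, which leukocytes in general carry, and Cd79b, and the 3 added Ms4a1. Cd79b and Ms4a1 averaged only 29.5 and 10.25 counts in the Cpt1a knockout livers. Endothelial, stellate and bile duct lists, of 5 markers each, had few calls. For the Cpt1a knockout over the reference group, 0 endothelial, 1 stellate (higher) and 0 bile duct markers were called. For the Cpt2 group over the reference group the calls were 1 endothelial (lower), 0 stellate and 1 bile duct (lower). Against the Cpt2 group, the Cpt1a knockout had 2 endothelial and 1 bile duct marker higher, and 1 stellate marker higher and 1 lower. The part of cell composition in the Rab values was not tested.

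Genes of golgins and other Rab effectors were called lower more often than higher between the genotypes. The list of 26 also holds effectors of endosomal Rabs, such as Rabep1. Of the list, 9 were lower and 1 higher in the Cpt1a knockout livers than in the Cpt2 group, in the authors' deposited table. Of all genes, 14.6% were lower and 14.2% higher. The 1 called higher was Rabep1, at 0.38 (adjusted p = 0.0112) in the authors' deposited table. The median of the list was -0.19, against 0.03 over all genes. The golgins Golga4, Golga2 (GM130) and Golga5, coiled-coil tethers of Golgi membranes, had -0.95 (adjusted p = 4.31e-11), -0.94 (4.98e-08) and -0.76 (1.39e-09) in the authors' deposited table. Gorasp2, which helps stack Golgi cisternae, had -0.50 (adjusted p = 7.16e-05) there in the authors' deposited table. Over the reference group the same list had 3 lower and 0 higher in the Cpt1a knockout, against 7.60% and 6.81% of all genes, with Zw10 at -0.60 (adjusted p = 0.00387), Gcc1 at -0.65 (0.0105) and Golga3 at -0.61 (0.0165), in the authors' deposited table. In the Cpt2 group over the reference group it had, against 10.3% of all genes higher and 10.7% lower, 1 higher, Golga4 at 0.54 (adjusted p = 0.0207), and 2 lower, Tmf1 at -0.45 (0.00927) and Gorasp1 at -0.52 (0.0198), in the authors' deposited table.

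Among 26 exchange factor genes, 4 were lower and 2 higher in the Cpt1a knockout livers than in the Cpt2 group, where 14.6% of all genes were lower and 14.2% higher, in the authors' deposited table. The share called lower is near that of all genes, and the share called higher is below it. Rab3gap1 and Rab3gap2, whose protein complex is the exchange factor of Rab18 and activates the GTPase of Rab3, had -0.83 (adjusted p = 5.80e-05) and -0.96 (1.59e-06), Trappc9 -0.85 (2.40e-04) and Rab3il1 1.05 (3.04e-04) in the authors' deposited table. Rab18 itself had -0.15 (adjusted p = 0.434) there in the authors' deposited table. For the Cpt1a knockout over the reference group, 2 of the 26 were lower and 1 higher, against 7.60% and 6.81% of all genes, in the authors' deposited table. Rab3gap1 was lower there at -0.80 (adjusted p = 0.0154) together with Trappc11, a TRAPP subunit, at -0.68 (0.00144), while Rab3il1 was higher at 1.04 (0.0154), in the authors' deposited table. In the Cpt2 group over the reference group, the authors' deposited table had 3 higher and 0 lower, against 10.3% and 10.7% of all genes: Rab3gap2 at 0.68 (adjusted p = 0.00286), Rgp1, part of a Rab6 exchange factor, at 0.61 (0.0169), and Dennd4a, an exchange factor of Rab10, at 0.50 (0.0217).

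Of 20 genes for GTPase activating proteins, 5 were lower and 1 higher for the Cpt1a knockout over the Cpt2 group, against 14.6% and 14.2% of all genes, in the authors' deposited table. Tbc1d15, which acts on Rab7, had -0.82 (adjusted p = 5.93e-05), Tbc1d17 -0.71 (3.74e-05), Tbc1d10b -0.79 (5.74e-05) and Tbc1d5 -0.79 (1.79e-04) in the authors' deposited table. In each comparison with the reference group, 1 of the 20 was higher and 1 lower. Of all genes, 6.81% were higher and 7.60% lower for the Cpt1a knockout, and 10.3% and 10.7% for the Cpt2 group. Over the reference group the Cpt1a knockout had Tbc1d13 higher at 0.55 (adjusted p = 0.0202) and Tbc1d17 lower at -0.43 (0.0397), in the authors' deposited table. The Cpt2 group had Tbc1d15 higher at 0.55 (adjusted p = 0.0158) and Evi5 lower at -0.46 (0.0454) over the reference group, in the authors' deposited table. Of 9 genes for prenylation and GDI, Rabggtb, a subunit of the geranylgeranyl transferase, was lower at -0.43 (adjusted p = 0.0172) for the Cpt1a knockout over the Cpt2 group in the authors' deposited table. Rabggtb was higher at 0.39 (adjusted p = 0.0329) in the Cpt2 group than in the reference group in the authors' deposited table, and none of the 9 was called for the Cpt1a knockout over the reference group, where none had an unadjusted p of at most 0.05.

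**Figure D4:**
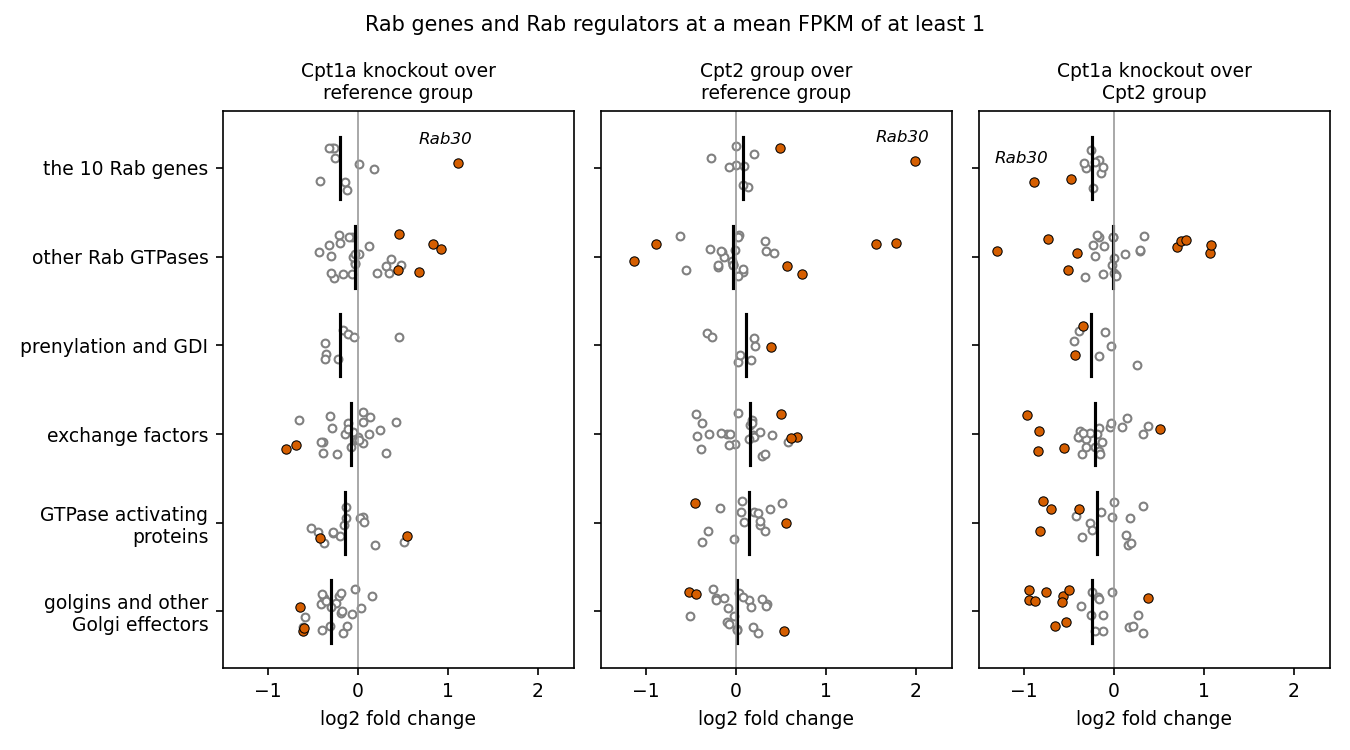
Log2 fold change of Rab genes and Rab regulators with a mean of at least 1 FPKM, with filled points for an adjusted p below 0.05 and a bar at the median of each list. Rab30 lies right of the other Rab genes in both comparisons with the reference group, at 1.11 and 1.99. For the Cpt1a knockout over the Cpt2 group it lies at -0.89, where the median of golgins and other effectors is -0.24. For the Cpt1a knockout over the reference group, genes absent from the partial table are drawn at the sum of the other log2 fold changes.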

How the data were processed

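Total RNA of frozen liver was sequenced, and HISAT2 and GRCm38 (mm10) are named as aligner and build in the submitters' processing notes. How reads were counted, and whether by strand, is not stated. The authors deposited raw counts and FPKM per gene. Their comparison tables hold, per the file headers, a log2 fold change with its raw and adjusted p-value for each gene, from an unnamed test.

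Across all tables, 88 per-sample columns (of 8 libraries outside the series, or of its own in the comparison tables) and 6 group mean columns were left unused. Having 1 group of samples, the series allows no fit between groups, so calls are the authors' adjusted p below 0.05, with an adjusted p of 1 read as not adjusted. The number of genes behind the partial table came from its p-values and ranks. For 4424 genes the summed log2 fold change differed from the deposited one by a median of 0.01.

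Spread was computed with edgeR 4.0.16 (R 4.3.3, TMM, 1 intercept, no moderation of the dispersion, chosen after a test on simulated data) from deposited counts. Coding sequences were read from GENCODE M21, whose gene bounds equal those of the files for 8 of 10 members, and aligned with Biopython 1.88. No protein was compared.

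Members and lists were chosen with earlier results of these data known. Named genes were the 10 members, up to 4 called genes per list (those lowest in adjusted p), the 5 genes nearest to Rab30, and Cpt1a and Cpt2. Rab7-ps1, Mrpl48, Rab10os, the neighbours of Rab30, Rab18 beside its exchange factor, Rabep1, Cd68, Gpnmb, Lyz2, Adgre1, Csf1r, Ptprc, Cd79b, Ms4a1 and Alb were named after their values were seen. A called gene that the rule names is not reported here. Alternatives were other normalizations, pseudocounts, filters and thresholds and leaving out each liver.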

Additional observations from a re-analysis of the deposited data

How the results depend on the processing

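The mean of Rab30 ranged from 7.45 to 9.0 FPKM when each liver was left out in turn, and its biological coefficient of variation from 11.4 to 26.7%, lowest without liver 1. The coefficient of Rab8a was 8.89% without liver 3, that of Rab10 8.18% without liver 1, and those of Rab6a and Rab7 11.0 and 7.14% without liver 4, against 15.8, 17.1, 17.0 and 11.6% with all livers. FPKM recomputed from the counts with TMM-normalized library sizes or DESeq2 size factors had a higher mean than the deposited FPKM for every member. The recomputed values start from the summed gene counts of each library, and the deposited FPKM are scaled otherwise. The rise therefore does not measure the effect of the normalization alone. Recomputed with TMM, Rab30 was at 9.39 FPKM against 8.40 deposited, and Rab1a at 57.8 against 51.6. The rise exceeded 1 SD only for Rab2a (55.6 FPKM), Rab18 (47.5) and Rab33b (3.14), the members whose SD is smallest relative to the mean. For the Cpt2 group over the reference group, the members called higher numbered 1 at an adjusted p below 0.01 and 1 at an absolute log2 fold change of 1 or more, against 2. For the Cpt1a knockout over the Cpt2 group, the members called lower numbered 0 at an absolute log2 fold change of 1 or more, against 2. The call of Rab30 in the other comparison was kept under each threshold, and its summed log2 fold change was 1.10. Among genes that averaged 10 counts or more, 16.6, 24.3 and 35.4% were called in the 3 comparisons. Leaving out libraries of the other groups was not run, since their columns belong to no sample here. No paired analysis was possible because the series holds 1 group of samples.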
